A study of Homo sapiens with 36 samples.

Results

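The 48 genes described here act in G2 phase and mitosis. They are a list of named genes, taken where they pass a filter on low counts, out of 29744 genes in the deposited table. All 48 passed it, as did 14988 genes in all. RNA was measured by sequencing of polyA-selected RNA from BxPC-3, an established human pancreatic cancer cell line labelled wild type. Cells received DMSO, the vehicle, or 3 µM of JQ1, MS78, TRAP1, TRAP-1-NegP or TRAP-1-NegB for 2 or 4 h, which gave 12 groups of 3 libraries. TRAP1 is here the label of a compound (TRAP-1 in the treatment protocol) and not the mitochondrial chaperone gene of that name, and the labels do not say what the endings NegB and NegP stand for. JQ1 is an inhibitor of BET bromodomain proteins, which read acetylated histones. All groups share the same single cell line, and the labels do not say whether replicates were separate cultures, so p-values measure the spread between these libraries, which may be technical.

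Entry into mitosis is driven by CDK1 with its B-type cyclins, switched on by CDC25 phosphatases and PLK1. The Aurora kinases, kinesins and kinetochore proteins then build the spindle and attach chromosomes, the spindle checkpoint holds anaphase back, and the anaphase-promoting complex with CDC20 ends it by marking securin and cyclin B for destruction. Many of these genes are transcribed together late in the cell cycle by B-MYB and FOXM1 through the MuvB complex, with NF-Y at CCAAT boxes, and the CDK inhibitor p21, through the repressive DREAM form of the MuvB complex, is known to shut many of them off.

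Libraries held 15288688 to 26608325 estimated counts, and the members were covered by 118 to 12678 counts each per library. The defining markers of pancreatic and epithelial cells were present: the summed level of 9 such genes was 9332 to 12488 TPM (a level corrected for gene length and library size), and none of the 9 lay under 1 TPM in all libraries. The summed level of 7 mesenchymal markers was 1.85 to 3.93 TPM and that of 7 blood and endothelial markers was 3.39 to 8.67 TPM, with 5 and 4 of these genes under 1 TPM in every library. The TMM scaling factor, which corrects for RNA composition, moved with the groups: it was 0.837 to 0.862 in TRAP1 at 4 h and 1.01 to 1.03 in DMSO at 4 h. With the size factors of DESeq2 in its place, DLGAP5 and KIF11 no longer passed the threshold used below for TRAP1 against DMSO at 4 h. The other members that passed it kept their result. What the results would be without any such factor was not tested. The first library of TRAP1 at 4 h had 1287 of the tested genes at 0, against 929 and 503 in the others of its group. The first library of MS78 at 2 h stood apart from its group over the tested genes. The chi-square per degree of freedom, a measure of how far the counts of 2 libraries differ, was 28.7 and 46.4 for the pairs that hold it. For the remaining pair of that group it was 7.26. The summed level of the members in this library was 3353 TPM against 3654 and 3659, a spread that did not itself set it apart, as DMSO at 4 h ran from 3650 to 3929. A sum can hide single members. The SD of MS78 at 2 h was 31.3 TPM for CDK1 and 9.86 for CKAP2, against 1.37 and 0.979 in DMSO at 2 h. For KIF20A it was 0.586 against 2.99.

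The promoters of 8 members whose RNA is described most closely below are shown because they carry, or lack, the letters through which late cell cycle genes are known to be read. RefSeq promoter windows (GRCh38.p14, the same build as the hg38 of the files) were matched for 40 of 48 members, and the 120 bases before the start of each gene are printed 5′ to 3′ on the gene's own strand. Capitals mark CCAAT boxes (CCAAT or its reverse complement), cell cycle gene homology regions (CHR, either TTTGAA or else TTCGAA, and their reverse complements) and E2F cores (the letters TTCCCGC, or the letters TTGGCGC, or the letters TTCGCGC, and their reverse complements). The first 5 belong to genes whose RNA fell with TRAP1 at 4 h: PLK1 at chr16:23678769-23678888 (+ strand), BUB1B at chr15:40160949-40161068 (+ strand), HJURP at chr2:233854536-233854655 (- strand), CCNF at chr16:2429327-2429446 (+ strand) and MKI67 at chr10:128126424-128126543 (- strand). The last 3 belong to genes whose RNA rose: PTTG1 at chr5:160421735-160421854 (+ strand), CDK1 at chr10:60778211-60778330 (+ strand) and NUSAP1 at chr15:41332761-41332880 (+ strand).
PLK1: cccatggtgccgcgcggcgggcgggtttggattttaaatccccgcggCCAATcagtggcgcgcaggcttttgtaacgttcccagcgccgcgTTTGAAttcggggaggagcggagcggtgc
BUB1B: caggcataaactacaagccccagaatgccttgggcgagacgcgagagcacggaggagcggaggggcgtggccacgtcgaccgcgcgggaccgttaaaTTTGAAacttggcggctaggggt
HJURP: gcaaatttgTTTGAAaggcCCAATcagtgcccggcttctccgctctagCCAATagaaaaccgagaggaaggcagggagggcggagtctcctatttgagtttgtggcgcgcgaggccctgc
CCNF: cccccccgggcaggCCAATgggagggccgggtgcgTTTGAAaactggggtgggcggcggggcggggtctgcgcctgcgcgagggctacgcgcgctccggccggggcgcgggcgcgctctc
MKI67: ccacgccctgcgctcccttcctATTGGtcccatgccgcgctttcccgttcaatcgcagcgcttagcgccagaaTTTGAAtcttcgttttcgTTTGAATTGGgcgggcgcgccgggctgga
PTTG1: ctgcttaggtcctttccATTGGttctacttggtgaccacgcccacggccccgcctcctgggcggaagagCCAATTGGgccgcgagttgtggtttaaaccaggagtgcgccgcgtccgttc
CDK1: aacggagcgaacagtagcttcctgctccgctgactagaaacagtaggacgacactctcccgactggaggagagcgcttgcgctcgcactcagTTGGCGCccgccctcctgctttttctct
NUSAP1: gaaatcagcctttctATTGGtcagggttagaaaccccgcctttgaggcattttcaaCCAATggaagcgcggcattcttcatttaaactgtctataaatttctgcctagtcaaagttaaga

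All 5 sequences of genes that fell hold a CHR in these 120 bases, at 29 bases before the start in PLK1 and 23 before it in BUB1B, and none of the 3 sequences of genes that rose does. In the full window of 250 bases before to 50 after the start, NUSAP1 holds a CHR 13 bases after the start and CDK1 holds one 161 bases before it, whereas PTTG1 holds none. In those full windows on both strands, a CCAAT box was found in 29 of 40 matched members (72.5%) and in 34.6% of all 35116 RefSeq promoters. A CHR was found in 28 of 40 (70%) against 16.4% of all promoters, both motifs in 23 of 40 (57.5%) against 6.38%, and an E2F core in 10 of 40 (25%) against 11%. In 20 members a CHR began between 60 bases before and 20 after the start. Matches of different motifs overlapped at 3 places and matches of the same motif at 1. By the change with TRAP1 at 4 h, a CHR was present in 20 of 26 matched members that fell, in 3 of 5 that rose and in 5 of 9 that were not called. A CCAAT box was present in 21, 4 and 4 of these. These matches are descriptions of letters and no test of binding was made.

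Most members were lower with TRAP1 at 4 h. Of the 48 members, 34 fell and 5 rose against DMSO (edgeR's quasi-likelihood test, Benjamini-Hochberg adjusted p under 0.05), where 24.5% of all tested genes fell, 22.2% rose and 46.7% were called in either direction. The median member changed by -0.40 on the log2 scale, against -0.02 for all tested genes. In 6 members the fall was at least 2-fold: PLK1, HJURP, CENPA, AURKA, CCNF and BUB1B. The 3 libraries of TRAP1 lay wholly below the 3 of DMSO in 31 of the 34 that fell. The same held for 91.8% of the 3674 tested genes that fell, or 22.5% of all tested genes, so this share is that of falls in general. In bulk RNA, fewer cells in G2 and mitosis and less of each RNA per cell cannot be told apart. The 34 falls and 5 rises were 32 and 5 without the first TRAP1 library, and 32 of the 39 calls held under every other setting tried.

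**Figure D1:**
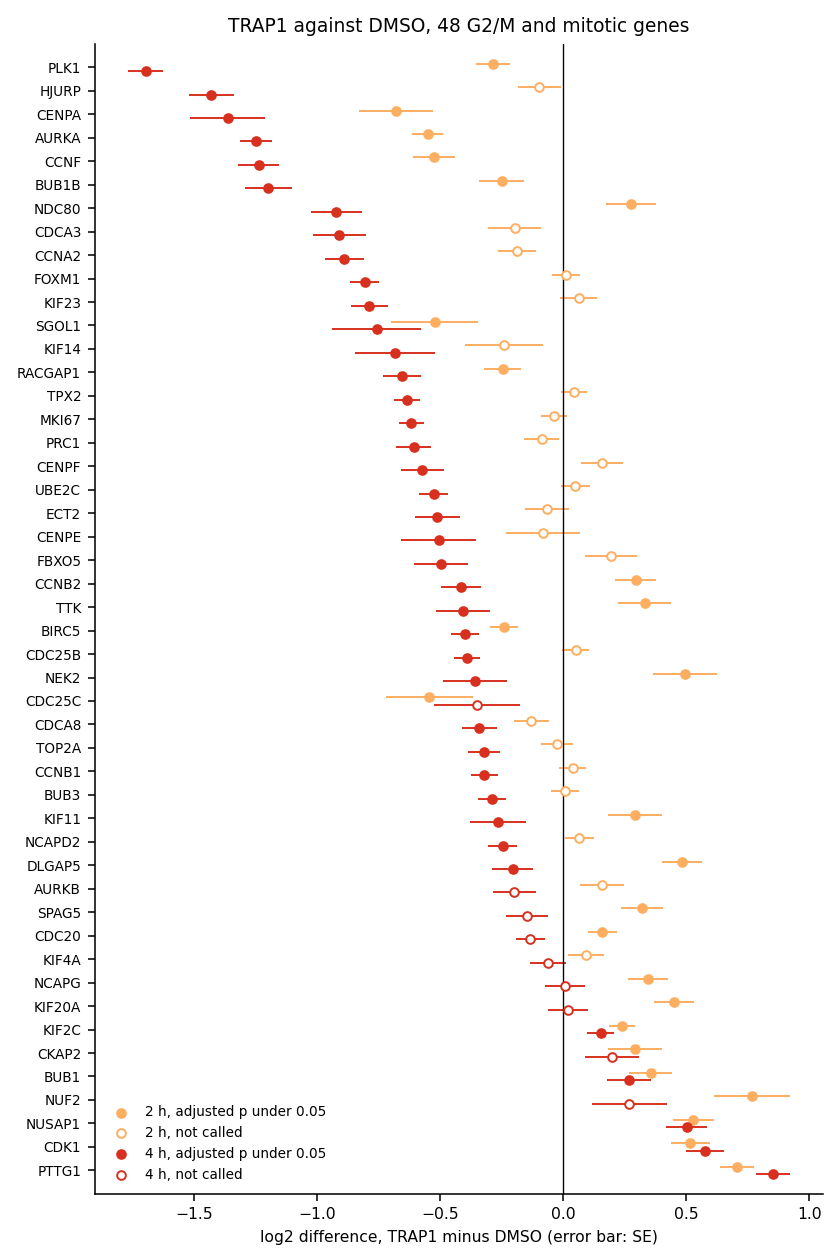
Log2 difference of TRAP1 from DMSO for each of the 48 genes at 2 h (orange) and 4 h (red), with the SE as error bar and filled points where the edgeR adjusted p is under 0.05. At 4 h most points lie left of 0, with PLK1 at -1.70 and PTTG1 at 0.85 as the ends, while at 2 h points lie on both sides.

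The summed level of the 48 genes depends on the scale. In TPM, which does not use the TMM factors of the tests, it was 3163 ± 23 TPM (SD, n = 3) in DMSO at 2 h and 3773 ± 142 at 4 h. With TRAP1 it was 3162 ± 24 at 2 h and 2490 ± 72 at 4 h. The 3 TRAP1 libraries at 4 h, at 2538, 2524 and 2407 TPM, lay below all 33 other libraries, which ran from 3071 up. JQ1 and TRAP-1-NegP at 4 h lay at 3486 ± 75 and 3318 ± 36, and MS78 at 4 h was the highest group at 4379 ± 61. Within DMSO at 4 h the members ranged from KIF14 at 4.14 TPM to UBE2C at 556 TPM with a median of 48.4, so UBE2C, CDC20 (382 TPM) and PTTG1 (260.5 TPM) weigh most in this sum. In TMM-scaled CPM, the scale of the tests, the sum was 4878 ± 20 in DMSO at 2 h and 5947 ± 101 at 4 h, and 5082 ± 32 and 4618 ± 92 with TRAP1. The TRAP1 libraries at 4 h, from 4516 to 4695 CPM, were again below all others, but closer to DMSO at 2 h, which ran from 4854 to 4889. JQ1 and TRAP-1-NegP at 4 h, at 5940 ± 78 and 5932 ± 75 CPM, overlapped DMSO at 4 h on this scale, whereas their means were lower in TPM.

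**Figure D2:**
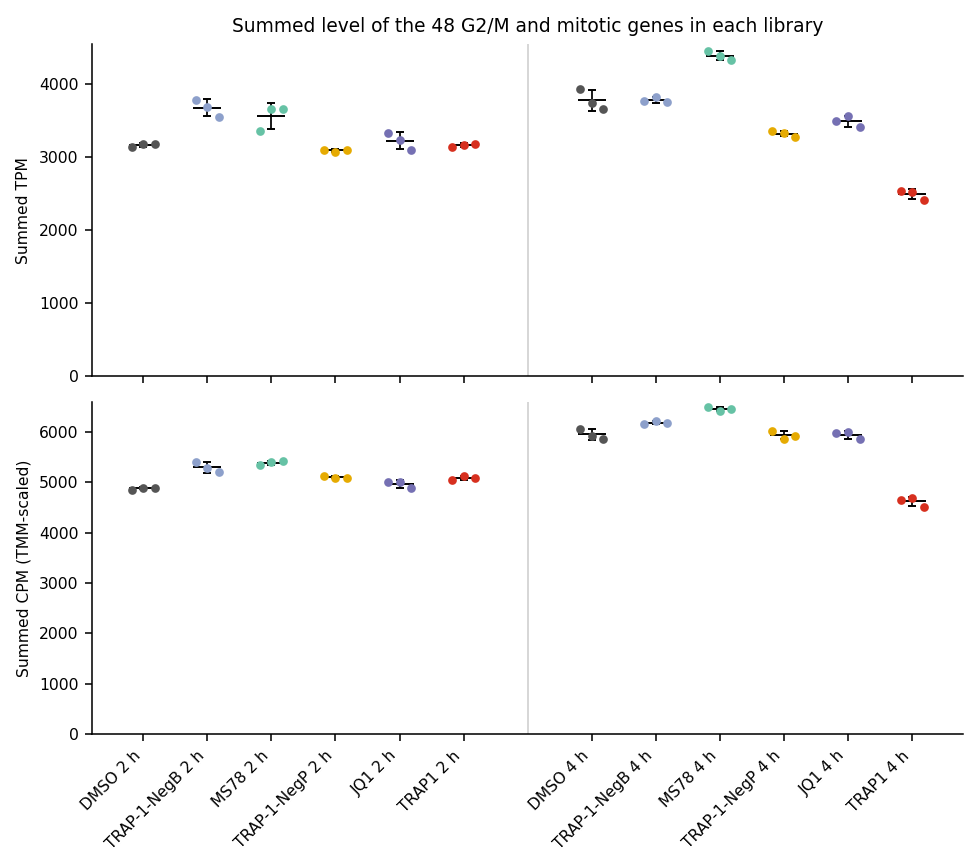
Summed TPM (top) and summed TMM-scaled CPM (bottom) of the 48 genes in each of 36 libraries (points), with the group mean and SD as bars, at 2 h on the left and 4 h on the right. The TRAP1 group at 4 h lies below every other group in both, at 2490 TPM and 4618 CPM, while JQ1 and TRAP-1-NegP at 4 h have lower means than DMSO in TPM and overlap it in CPM.

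Among the 8 mitotic kinases, 5 fell and 2 rose with TRAP1 at 4 h. This count and those of the other roles below stand against 3674 falls and 3326 rises over all 14988 tested genes. The roles are small and were not tested against each other. PLK1, the Polo-like kinase that promotes mitotic entry and spindle assembly (chr16:23678889-23690367), stood at 220.5, 240.4 and 229 CPM (counts scaled to a common library size, with TMM) in DMSO and at 66.9, 69.2 and 77.2 in TRAP1. The groups were far apart and the change was -1.70 (SE 0.07, edgeR adjusted p = 4.68e-27), a 3.24-fold fall. PLK1 was intermediate in TRAP-1-NegP at 153, 147 and 152 CPM and in JQ1 at 106, 108 and 105 CPM, and no library of these groups overlapped another's. AURKA, the Aurora kinase of the spindle poles (chr20:56369390-56392215), went from 148, 136 and 137 CPM to 55.3, 62.1 and 60.4 (-1.25, SE 0.07, edgeR adjusted p = 4.91e-23). BUB1B, whose product BubR1 is a core of the spindle checkpoint, went from 59.9, 57.1 and 59.2 CPM to 28, 27 and 21.8 (-1.20, SE 0.10, edgeR adjusted p = 8.93e-16). For both, all 3 TRAP1 libraries lay below all libraries of TRAP-1-NegP and JQ1 as well.

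CDK1, the kinase that triggers mitosis (chr10:60778331-60794852), moved the other way. It stood at 121, 116 and 116 CPM in DMSO at 4 h and 176, 175 and 174 in TRAP1 (0.58, SE 0.08, edgeR adjusted p = 1.40e-08). The highest CDK1 level was that of JQ1 at 4 h, at 211, 211 and 211 CPM. BUB1, a checkpoint kinase, rose by 0.27 with TRAP1 and by 0.75 with JQ1, and its call with TRAP1 was lost without the second or the third DMSO library. TTK, the checkpoint kinase Mps1, and NEK2, a centrosome kinase, fell by 0.41 and 0.36 at 4 h. The call of NEK2 held in 11 of 15 other settings. It was lost without the first DMSO or the first TRAP1 library, without both libraries that stood apart, and with only the compared groups fitted. AURKB, the kinase of the chromosomal passenger complex, changed by -0.20 and was not called.

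Of the 6 cyclins and CDC25 phosphatases, 5 fell and none rose with TRAP1 at 4 h. CCNF, the F-box protein cyclin F (chr16:2429447-2458854), went from 116, 120.3 and 127 CPM to 53.6, 53.9 and 46.9 (-1.24, SE 0.08, edgeR adjusted p = 2.30e-18). CCNA2, cyclin A2, fell by 0.89. The B-type cyclins moved less: CCNB1 fell by 0.32 and CCNB2 by 0.41. CDC25B, a phosphatase that activates CDK1, fell by 0.39, and CDC25C, at -0.35, was not called. JQ1 lowered CCNB1, CCNB2 and CDC25B by 0.31, 0.34 and 0.37, values that differed from those of TRAP1 by -0.01, -0.07 and -0.02 without a call. CCNF and CCNA2 differed from JQ1 by -0.96 and -0.82, both called.

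In the group of checkpoint, anaphase and ubiquitin genes, 5 of 7 fell and 1 rose with TRAP1 at 4 h. PTTG1, securin, which restrains the protease separase until anaphase (chr5:160421855-160428744), was the member with the largest rise. It stood at 101, 100 and 95.3 CPM in DMSO and at 173, 184 and 178 in TRAP1 (0.85, SE 0.07, edgeR adjusted p = 1.39e-15). Its level in TRAP-1-NegP (142, 142 and 145 CPM) and JQ1 (140, 140.2 and 133) lay between those of DMSO and TRAP1, with no overlap on either side. UBE2C, the ubiquitin-conjugating enzyme of the anaphase-promoting complex, fell by 0.53, CDCA3 by 0.91, BUB3 by 0.29 and SGOL1, shugoshin, which protects centromeric cohesion, by 0.76. The call of SGOL1 was lost with length-scaled counts. CDC20, the activator of that complex in mitosis, changed by -0.13 and was not called (edgeR adjusted p = 0.0571).

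FBXO5, the inhibitor Emi1 of the anaphase-promoting complex, had the largest difference of any member between TRAP1 and JQ1 at 4 h. It stood at 29.7, 30.5 and 31.4 CPM in DMSO at 4 h. The libraries of TRAP1 were at 22.7, 20.3 and 21.9, those of TRAP-1-NegP at 54.6, 46.2 and 43.3, and those of JQ1 at 67.7, 63.7 and 59.5, so all 4 groups were apart. The change from DMSO was -0.50 with TRAP1, 0.65 with TRAP-1-NegP and 1.06 with JQ1, each called. TRAP1 differed from TRAP-1-NegP by -1.15 (95% interval -1.37 to -0.93) and from JQ1 by -1.56 (-1.77 to -1.34).

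Of the 8 kinetochore, centromere and chromosomal passenger genes, 7 fell and none rose with TRAP1 at 4 h. HJURP, the chaperone that loads the centromeric histone CENP-A (chr2:233836702-233854535), went from 68.8, 63.7 and 59.9 CPM to 24.2, 26.9 and 20.2 (-1.43, SE 0.09, edgeR adjusted p = 1.48e-19). The libraries of TRAP-1-NegP, at 70.4, 66.2 and 60.8, and of JQ1, at 63.6, 63 and 64, overlapped DMSO. CENPA, the histone that HJURP loads, fell by 1.36. CENPF and CENPE, large kinetochore proteins, fell by 0.57 and 0.50, and the call of CENPE was lost without the first or the third TRAP1 or the first DMSO library. CDCA8 and BIRC5, the passenger proteins borealin and survivin, fell by 0.34 and 0.40. NUF2, at 0.27, was not called.

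NDC80, the microtubule-binding kinetochore protein, fell with all 3 of these compounds. It stood at 38.9, 41 and 34.3 CPM in DMSO at 4 h, at 22.8, 20.6 and 16.7 in TRAP1, at 22.1, 20.4 and 21.2 in TRAP-1-NegP and at 22.2, 21.7 and 19.1 in JQ1. The 3 treated groups overlapped one another and all lay below DMSO. The changes were -0.92, -0.84 and -0.86. The difference of TRAP1 from TRAP-1-NegP was -0.08 (95% interval -0.29 to 0.13) and from JQ1 -0.06 (-0.27 to 0.15), neither called.

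Of the 6 kinesin motors, 3 fell and 1 rose, with a median of -0.16, where 3674 of 14988 tested genes fell and 3326 rose. KIF23, a motor of the central spindle, fell by 0.79, KIF14 by 0.68 and KIF11, the Eg5 motor that separates spindle poles, by 0.26. The KIF11 call, at edgeR adjusted p = 0.0494, was lost in 11 of 15 other settings. KIF2C, a microtubule depolymerase, rose by 0.15, and its call was lost without the first or the third DMSO or the second TRAP1 library, and without the count filter. KIF20A and KIF4A changed by 0.02 and -0.06 and were not called. Yet all 6 were lower in TRAP1 than in JQ1 at 4 h, by 0.95 for KIF14 to 0.20 for KIF2C. Over all 14988 tested genes, 2236 were lower in that comparison. JQ1 raised 4 of the 6 kinesins against DMSO, where 3642 tested genes rose. Of these rises, those of KIF11 and KIF4A kept their call in only 4 and 8 of 14 other settings. The difference of TRAP1 from JQ1 kept its call in 11 of 15 other settings for KIF4A and in 14 for KIF11 and KIF2C.

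Of the 8 spindle and cytokinesis genes, 5 fell and 1 rose. TPX2, which activates Aurora A on spindle microtubules (chr20:31739290-31801800), went from 307, 278 and 274 CPM to 183, 191 and 180 (-0.63, SE 0.05, edgeR adjusted p = 4.95e-15). PRC1, which bundles the central spindle, fell by 0.61, and RACGAP1 and ECT2, which direct the cleavage furrow, fell by 0.65 and 0.51. NUSAP1, a spindle-associated protein (chr15:41332881-41381046), rose from 88, 84.4 and 89.7 CPM to 120.2, 131 and 119.7 (0.50, SE 0.08, edgeR adjusted p = 9.97e-07). It was higher still in JQ1 at 141, 150.4 and 149 CPM. DLGAP5 fell by 0.20, a call lost in 7 of the other settings, and SPAG5 and CKAP2, at -0.15 and 0.20, were not called.

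MKI67, which encodes the proliferation marker Ki-67 (chr10:128096659-128126423), fell with TRAP1 and rose with JQ1. It stood at 417, 365 and 386 CPM in DMSO at 4 h, at 260, 245 and 257 in TRAP1 (-0.62, SE 0.05, edgeR adjusted p = 6.31e-15) and at 559, 549 and 545 in JQ1 (0.50, SE 0.05, edgeR adjusted p = 4.20e-12). The groups did not overlap. TOP2A, topoisomerase II alpha, went the same 2 ways, by -0.32 and 0.35, both called. Its call with JQ1 was lost with a correction for GC content and length. The condensin subunit NCAPD2 fell by 0.25 and NCAPG, another, changed by 0.01. FOXM1, the transcription factor of the list (chr12:2857680-2877174), went from 180, 179 and 196 CPM to 98.8, 116 and 102 (-0.81, SE 0.06, edgeR adjusted p = 2.44e-17). In JQ1 it was at 107, 106 and 110.3 CPM, overlapping TRAP1, and in TRAP-1-NegP at 136, 135 and 133, between these and DMSO.

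**Figure D3:**
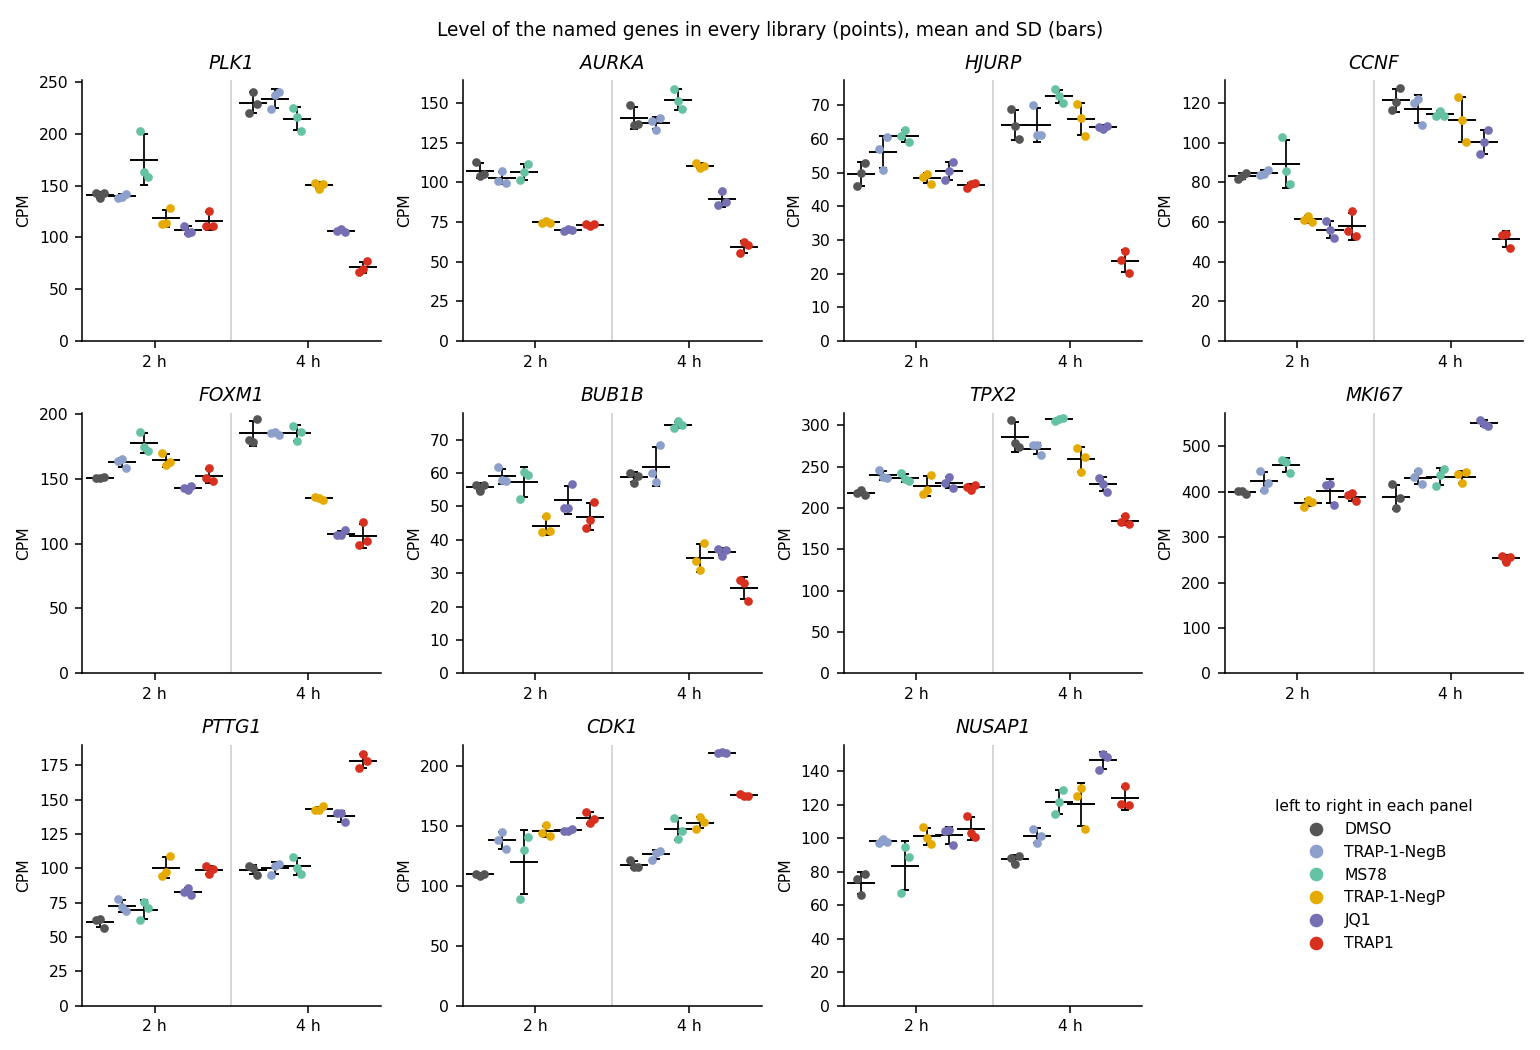
Level in CPM of 11 of the 13 genes given by library above (all but FBXO5 and NDC80), in each of the 36 libraries (points) with group mean and SD (bars), for 2 h and 4 h. HJURP and MKI67 in TRAP1 at 4 h (red) lie below every other group, FOXM1 in TRAP1 overlaps JQ1, and PTTG1 in TRAP1 lies above every other group.

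At 2 h the members had not moved one way. With TRAP1, 17 rose and 9 fell, where 15.7% of tested genes rose and 14.3% fell (30.1% called), and the median was 0.05, against 0.01 for all genes. PTTG1 was at 62.2, 63.1 and 56.8 CPM in DMSO and 102, 95.7 and 99.7 in TRAP1 (0.71, SE 0.07, edgeR adjusted p = 6.35e-12). CDK1 rose by 0.52 and NUSAP1 by 0.53. AURKA was already lower, from 113, 104 and 105 CPM to 73.8, 72.2 and 74 (-0.55, SE 0.06, edgeR adjusted p = 7.35e-10), and CCNF and CENPA fell by 0.52 and 0.68. HJURP, FOXM1, TPX2 and MKI67, at -0.10, 0.01, 0.04 and -0.04, were not called. NUF2 had the largest rise at 0.77.

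The change between the times was tested as the TRAP1 effect at 4 h minus that at 2 h. It was called lower for 34 members and higher for none, where 11.8% of tested genes were lower, 10.2% higher and 22% called in all. The median was -0.46, against -0.03 for all genes. The largest were PLK1 at -1.41 (SE 0.10, edgeR adjusted p = 2.42e-16) and HJURP at -1.33 (SE 0.13, edgeR adjusted p = 8.52e-12). For PTTG1 the difference was 0.14 (95% interval -0.05 to 0.34), for CDK1 0.06 (-0.16 to 0.28) and for NUSAP1 -0.03 (-0.26 to 0.21), and none was called. Another 6 members rose at 2 h and fell at 4 h: NDC80, CCNB2, TTK, NEK2, DLGAP5 and KIF11. NDC80 had risen by 0.28, at 38, 39.8 and 38.4 CPM against 30.3, 32.8 and 32.9. The difference of its effects was -1.20 (SE 0.14, edgeR adjusted p = 5.84e-09).

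DMSO itself moved between the times: 24 members rose from 2 to 4 h and none fell, where 11.4% of tested genes rose, 9.45% fell and 20.8% were called. With a correction for GC content and length, 37 rose. The median member was 0.26 higher, against 0.01 for all genes. PLK1 rose by 0.71, PTTG1 by 0.70, UBE2C by 0.65, CENPA by 0.61, CDC20 by 0.60 and CCNB1 by 0.53. The 4 h comparisons thus use a control in which many members had risen. For PLK1, the TRAP1 libraries at 4 h (66.9 to 77.2 CPM) were also below those of TRAP1 (111 to 126) and DMSO (138 to 143) at 2 h. For CCNB1, they were above DMSO at 2 h, at 191 to 209 against 173 to 179 CPM.

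TRAP1 and TRAP-1-NegP, at the same dose, were hardly apart at 2 h and clearly apart at 4 h. At 2 h 1 member was called, BIRC5, at -0.23 (0.274% of tested genes lower, 0.527% higher and 0.801% called), and it was not called when any library of the 2 groups was left out. With 6 members at an unadjusted p under 0.05, the median difference was -0.02. At 4 h, 30 members were lower in TRAP1 and 1, PTTG1, was higher, where 8.09% of tested genes were lower, 7.25% higher and 15.3% called. The median difference was -0.33, against -0.01 for all genes. HJURP differed by -1.47 (SE 0.09, edgeR adjusted p = 6.68e-19), CCNF by -1.12, PLK1 by -1.08 (SE 0.07, edgeR adjusted p = 6.49e-18), CENPA by -0.99, AURKA by -0.90, CENPF by -0.80 and MKI67 by -0.77 (SE 0.05, edgeR adjusted p = 1.91e-17). For NDC80, PRC1 and BIRC5 the differences were -0.08, -0.09 and -0.11, and none was called.

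Against JQ1, TRAP1 was higher in 2 members at 2 h, NDC80 (0.49) and PTTG1 (0.25), where 1.1% of tested genes were higher, 0.887% lower and 1.99% called. NDC80 was called in all 14 other settings, and PTTG1 lost its call when any 1 library of these groups was left out. At 4 h, 33 members were lower and PTTG1 was higher, where 14.9% of tested genes were lower, 12.5% higher and 27.4% called. The median was -0.34, against -0.03 for all genes. FBXO5, HJURP, CENPF and MKI67 differed by -1.56, -1.41, -1.21 and -1.12. FOXM1, PRC1 and BIRC5 did not differ by call, at -0.03 (95% interval -0.14 to 0.09), -0.04 (-0.18 to 0.10) and -0.00. These 2 sets of comparisons share the TRAP1 libraries.

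**Figure D4:**
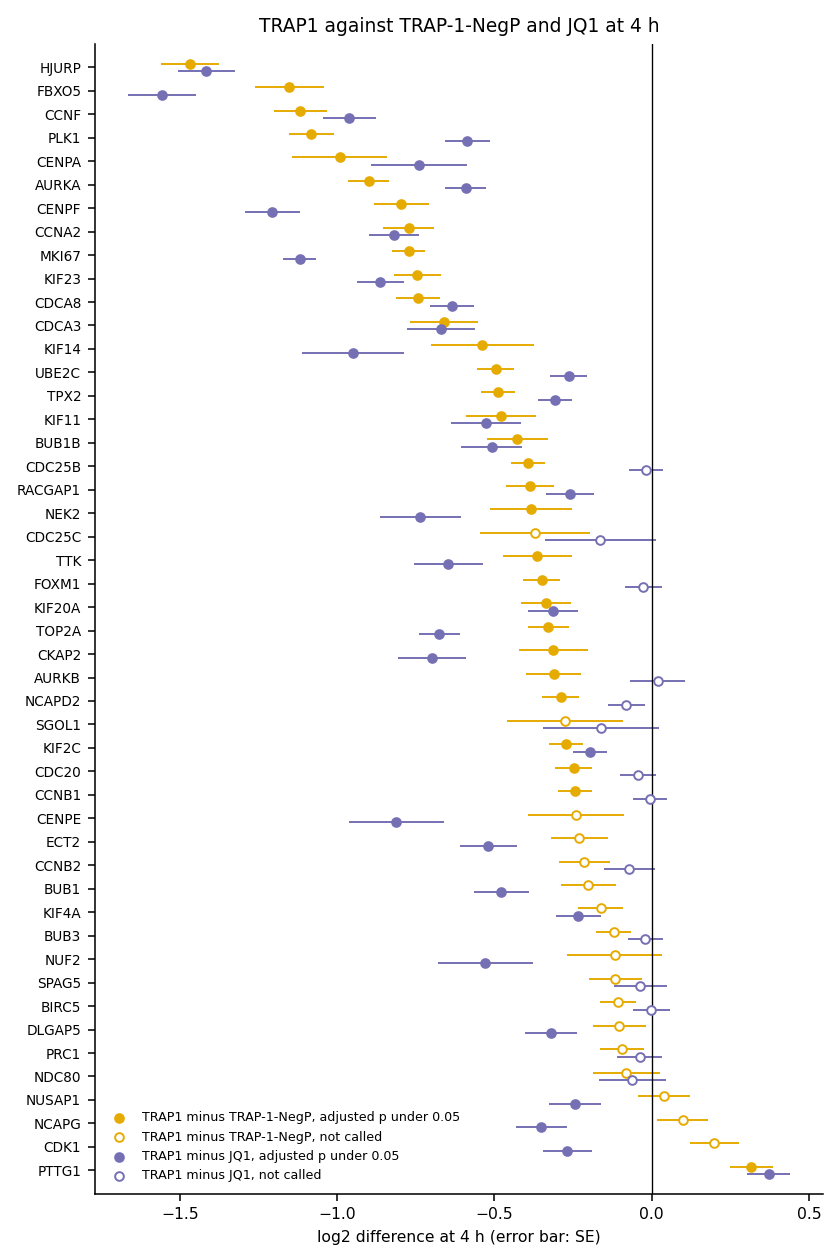
Log2 difference at 4 h of TRAP1 from TRAP-1-NegP (yellow) and from JQ1 (purple) for each of the 48 genes, with the SE as error bar and filled points where the edgeR adjusted p is under 0.05. Most points lie left of 0, with HJURP at -1.47 and -1.41, and PTTG1 alone is called on the right, at 0.32 and 0.37.

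TRAP-1-NegP by itself gave a mixed pattern. At 2 h 19 members rose and 8 fell (16.4% and 13.9% of tested genes, 30.3% in all), and at 4 h 12 rose and 14 fell (18.6% and 18.9%, 37.4% in all). With a correction for GC content and length the split at 4 h was 15 and 10. The median at 4 h was -0.04, and 0.04 with that correction. NDC80, BUB1B, PLK1, PRC1 and FOXM1 fell by 0.84, 0.77, 0.61, 0.51 and 0.46 at 4 h. FBXO5, PTTG1, CKAP2, BUB1 and CDCA8 rose by 0.65, 0.53, 0.51, 0.47 and 0.40. Its effect at 4 h minus 2 h was called higher for 3 members and lower for 11 (11% and 12.2% of tested genes, 23.2% in all), NDC80 with the largest difference at -1.26.

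JQ1 also split the members. At 2 h 12 rose and 9 fell (14.8% and 13.9% of tested genes, 28.8% in all), and at 4 h 17 rose and 19 fell (24.3% and 24.6%, 48.9% in all), with a median of -0.04. PLK1 fell by 1.11, NDC80 by 0.86, FOXM1 by 0.78, BUB1B by 0.69 and AURKA by 0.65. FBXO5 rose by 1.06, CKAP2 by 0.90, CDK1 by 0.84, NUF2 by 0.80, BUB1 by 0.75 and NUSAP1 by 0.75. Its effect at 4 h minus 2 h was called higher for 10 members and lower for 12 (13.2% and 12.8% of tested genes, 26% in all). Set against TRAP-1-NegP, JQ1 was higher in 3 members and lower in 8 at 2 h (5.65% and 7.26% of tested genes, 12.9% in all, and 4 calls without the second JQ1 or the first TRAP-1-NegP library), and higher in 16 and lower in 10 at 4 h (12.9% each way, 25.7% in all). With the correction for GC content and length these were 0 and 7 at 2 h and 2 and 11 at 4 h.

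With TRAP-1-NegB and MS78 most called members were higher. With TRAP-1-NegB, 14 members rose and CDCA8 fell at 2 h (5.08% and 5.87% of tested genes, 10.9% in all), among them NUF2 at 0.63, TTK at 0.61 and DLGAP5 at 0.56. Without the third DMSO library 9 were called, and 10 without the first TRAP-1-NegB library. At 4 h, CDC25B was the only call, a rise of 0.37 (0.827% of tested genes rose, 0.2% fell and 1.03% were called), with 10 members at an unadjusted p under 0.05, and 3 calls without the first DMSO library. With MS78, 18 rose and none fell at 2 h (8.3% and 7.65% of tested genes, 15.9% in all). At 4 h 19 rose, and CDC20 and BIRC5 fell by 0.20 and 0.23 (6.23% and 9.05%, 15.3% in all). The rises at 4 h included TTK at 0.58, KIF14 and CENPE at 0.52, NDC80 at 0.50, NUSAP1 at 0.48 and CENPF at 0.46. The 18 calls at 2 h were 20 without the first MS78 library, 15 rises and 2 falls without the second, 15 rises and 4 falls without the third, and 1 when only MS78 and DMSO at 2 h were fitted. The 21 calls at 4 h were 10 with the correction for GC content and length.

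**Figure D5:**
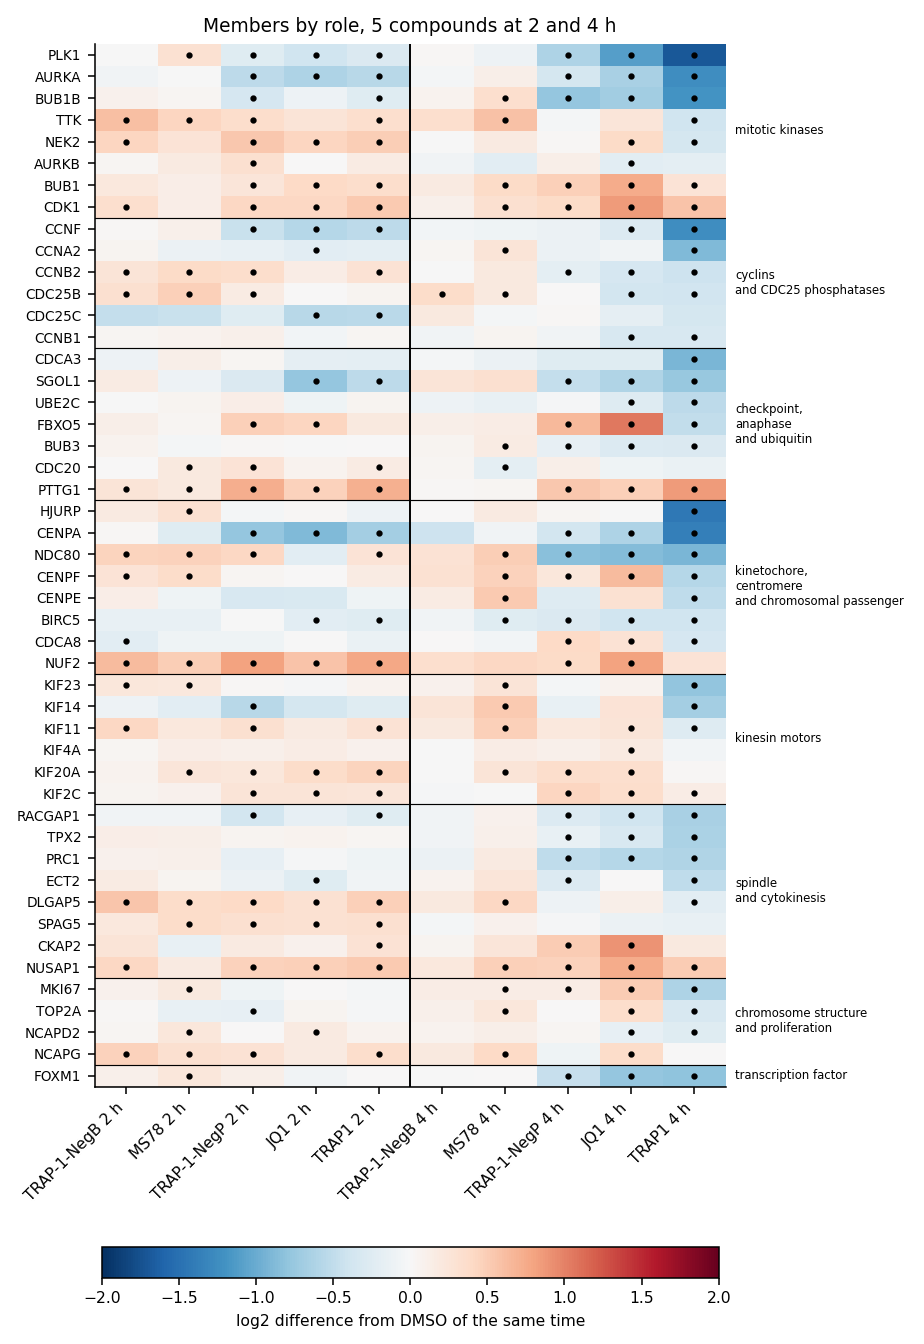
Log2 difference from DMSO of the same time for the 48 genes (rows, by role) and 5 compounds (columns), in blue for lower and red for higher, with a dot where the edgeR adjusted p is under 0.05. In the TRAP1 column at 4 h 39 of 48 values lie below 0, whereas the TRAP-1-NegP and JQ1 columns at 4 h hold both colours and the MS78 and TRAP-1-NegB columns are mostly red or pale.

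TRAP1 at 4 h was also lower than each of these 2 compounds. Against TRAP-1-NegB, 36 members were lower and 4 higher (24.2% and 22% of tested genes, 46.1% in all), with a median of -0.48. Against MS78, 38 were lower and 3 higher (25.4% and 23.9%, 49.3% in all), with a median of -0.61. When the effects of TRAP-1-NegP and TRAP-1-NegB were added, the TRAP1 effect at 4 h was below their sum for 23 members and above it for PTTG1 (3.62% and 3.34% of tested genes, 6.97% in all), with a median of -0.38. The largest of these departures were HJURP at -1.47, FBXO5 at -1.28, PLK1 at -1.11, CENPF at -1.10 and CCNF at -1.06.

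Other genes of the same phase were counted in the same way. Of 64 further G2/M genes, 32 fell and 10 rose with TRAP1 at 4 h, with a median of -0.31. PSRC1, a spindle protein, fell by 1.66, KIF18B, a kinesin, by 1.44, INCENP, the scaffold of the passenger complex, by 0.96, and LMNB1, lamin B1, by 0.95. The largest rises were those of TUBB4B, CKS1B and CKS2, at 0.95, 0.70 and 0.56. JQ1 at 4 h also lowered PSRC1, KIF18B and LMNB1, by 1.17, 0.48 and 0.60, and INCENP, at -0.18, was not called. Against TRAP-1-NegP, 36 of the 64 genes were lower in TRAP1 and 2 higher. Among 15 measured genes of the anaphase-promoting complex and its partners, 8 fell and none rose, with a median of -0.26. FZR1, its activator Cdh1 of late mitosis and G1, fell by 0.89. With JQ1 at 4 h FZR1 fell by 1.09, and the difference of TRAP1 from JQ1, at 0.20, was not called. Against TRAP-1-NegP, 4 of these 15 were lower and 2 higher. Of 41 genes of the G1/S transition and DNA replication, 19 fell and 12 rose with TRAP1 at 4 h, with a median of -0.07. Against TRAP-1-NegP, 13 of these 41 were lower and 3 higher. All these counts stand against 24.5% lower and 22.2% higher over all tested genes for TRAP1 against DMSO, and 8.09% and 7.25% against TRAP-1-NegP, and the lists were not tested against each other.

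Of 23 regulators of G2/M transcription, 9 fell and 4 rose with TRAP1 at 4 h, with a median of -0.11. Over all 14988 tested genes, 3674 fell and 3326 rose, and this list was not tested against them. CDKN1A, the CDK inhibitor p21, stood at 161 ± 5 CPM (SD, n = 3) in DMSO and at 7760 ± 228 in TRAP1 at 4 h, a difference of 5.59 (SE 0.06, edgeR adjusted p = 7.56e-57). It was at 679 ± 9 CPM in TRAP-1-NegP, 704 ± 31 in JQ1, 260 ± 6 in TRAP-1-NegB and 162 ± 7 in MS78. E2F7, a repressor of E2F targets, rose by 1.54. Of the MuvB subunits, LIN37 rose by 0.80 and LIN9 fell by 0.91. LIN52, LIN54 and RBBP4, at 0.28, 0.11 and -0.07, were not called. E2F2 and E2F8 fell by 2.43 and 1.58, NFYC, a subunit of NF-Y, by 0.49 and E2F4 by 0.46. MYBL2, which encodes B-MYB, changed by 0.01 and was not called. For E2F7, LIN37, LIN9, E2F2, E2F8, NFYC and E2F4, values with the other compounds are not given here. Their changes are thus not shown to be particular to TRAP1.

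Across the 36 libraries the members did not form 1 block. Over 1128 pairs, the median Pearson correlation of log2 CPM was 0.35, with a range of -0.73 to 0.93, and 0.05 once group means were removed. TPX2 and HJURP were most like the mean of the other members, at 0.88 and 0.84, and CDK1 and PTTG1 least, at -0.01 and 0.01. These values are descriptions over libraries that share groups, treatments and depth.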

How the data were processed

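The authors measured polyA RNA of 36 libraries as paired-end reads and quantified genes against hg38 with Salmon 1.10.3 run through nf-core/rnaseq 3.18.0, per the submitters' processing notes and the series' design text. No annotation release is stated there. Gene values as deposited are estimated counts without depth normalization; a deposited length-scaled table of estimated counts served as an alternative, and the deposited TPM table gave levels between genes.

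Rounded counts were fitted with edgeR 4.0.16 (R 4.3.3, limma 3.58.1): filterByExpr (minimum count 10, 12 groups), TMM, robust quasi-likelihood fit of 1 mean per group to all 36 libraries, and Benjamini-Hochberg adjustment over all 14988 genes within each of 23 comparisons. Tests are two-sided. SE is the log2 difference divided by the square root of the F statistic. CPM are TMM-scaled. The fit was tested on simulated data. Alternatives were DESeq2 1.42.0 (size factors, Wald test), other filters, length-scaled counts, a replicate block, fits of the compared groups alone, leaving out libraries, and, added after the data were seen, a correction for GC content and length (edgeR offsets; 47 of 48 members with values). No library pair of a group was identical. Figures used Python 3.11.15 and matplotlib 3.10.9.

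The members, roles, lists and motifs were chosen with earlier results of these data known. Genes given by library are the 8 falls and 3 rises of smallest adjusted p with TRAP1 at 4 h and the 4 of smallest adjusted p with TRAP1 at 2 h and against TRAP-1-NegP at 4 h; NDC80, FBXO5 and MYBL2 were added after their values were seen. Proteins and the promoters of AURKA, TTK, BUB3, UBE2C, BIRC5, TPX2, RACGAP1 and FOXM1 are not shown. Some items are not reported here.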

Additional observations from a re-analysis of the deposited data

Results flagged for a closer look

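The effects of 3 compounds differed between 2 and 4 h by the edgeR interaction term (Benjamini-Hochberg adjusted p under 0.05): 34 members for TRAP1, 14 for TRAP-1-NegP and 22 for JQ1, out of 48 each. The shares over all tested genes were 22%, 23.2% and 26%, so the count for TRAP-1-NegP is near that of all genes. The TRAP1 effect turned from a rise at 2 h to a fall at 4 h in 6 members. The difference of the 2 effects was -1.20 for NDC80, -0.85 for NEK2, -0.74 for TTK, -0.71 for CCNB2, -0.69 for DLGAP5 and -0.56 for KIF11, and all 6 differences were called in each of the 21 settings. The single effects were less firm: the 4 h falls of NEK2, DLGAP5 and KIF11 and the 2 h rises of NDC80, KIF11, TTK and CCNB2 each lost their call in at least 1 setting. Groups of 3 libraries are too small for the test of single outlying libraries.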

How the results depend on the processing

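No called direction of TRAP1 against DMSO at 4 h changed under any alternative, and 32 of its 39 calls were kept in every one; its count ran from 35 to 38 without 1 library and was 41 without both libraries that stood apart. The 19 named values kept direction and call throughout. Counts moved by over 1.5 times as follows, and the cause was not tested. With only the compared groups fitted, MS78 at 2 h gave 1, TRAP1 against TRAP-1-NegP at 2 h gave 4 and TRAP-1-NegB at 4 h gave 2. Without the count filter, TRAP1 against TRAP-1-NegP at 2 h gave 0, TRAP1 against JQ1 at 2 h gave 1 and TRAP-1-NegB at 4 h gave 2. With length-scaled counts TRAP1 against JQ1 at 2 h gave 1, and with DESeq2's Wald test TRAP-1-NegB at 4 h gave 2. With the correction for GC content and length, the counts were 2 for TRAP1 against TRAP-1-NegP at 2 h, 7 for JQ1 against TRAP-1-NegP at 2 h and 13 at 4 h, 3 for TRAP-1-NegB at 4 h, 10 for MS78 at 4 h and 37 for DMSO at 4 against 2 h. Without 1 library, TRAP-1-NegB at 2 h gave 9 (without the third DMSO library) to 16, TRAP1 against TRAP-1-NegP at 2 h gave 0 to 0, TRAP1 against JQ1 at 2 h gave 1 to 1, JQ1 against TRAP-1-NegP at 2 h gave 4 (without the second JQ1 or first TRAP-1-NegP library) to 8, and TRAP-1-NegB at 4 h gave 1 to 3 (without the first DMSO library). Same-numbered libraries correlated by a median of 0.008 over 198 pairs, 17 of 36 libraries correlated best with their own number, and with the replicate block TRAP1 at 4 h had 5 rises and 33 falls. The SE of KIF14, SGOL1 and CENPE with TRAP1 at 4 h were 0.16, 0.18 and 0.15, so smaller changes of these genes were less detectable; the part of depth in this was not tested.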
